A study of Mus musculus with 9 samples.

Results

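The voltage-gated sodium channel genes of the central nervous system were described in mouse spinal cord by their 8 members, 5 alpha subunits (Scn1a, Scn2a, Scn3a, Scn8a and Scn9a) and 3 beta subunits (Scn2b, Scn3b and Scn4b). They were chosen by gene symbol, and all 8 stood among the 40879 symbols of the deposited tables. A filter on low counts left 18245 genes for testing, 7 of the 8 members among them. Scn2b was listed at 0 in all 9 libraries. Spinal cord of male mice was profiled by poly(A) RNA sequencing in 3 libraries each of SNI+LDN193189, SNI and sham. SNI stands in pain research for spared nerve injury, a surgery that cuts part of the sciatic nerve, and sham is the group without it. LDN193189, a small-molecule inhibitor of BMP type I receptor kinases, was given to an injured group and to no uninjured one. The sources used here state no strain, age, cord segment, side, time after surgery, dose or vehicle, and the replicates are called separate biosamples without mention of separate animals. The p-values therefore measure the spread between these samples, which may be technical in part. Libraries held 33432776 to 37190467 counts. The labels' extraction text speaks of cell lines, but 14 of 14 neuron and 6 of 6 oligodendrocyte markers passed the filter. Of the other markers of cord cells, Slc18a3, Gpr17, Aqp4 and P2ry12 were listed at 0.

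Voltage-gated sodium channels open when a neuron's membrane is depolarised and carry the upstroke of the action potential. Each channel has 1 large alpha subunit, which forms the pore, and smaller beta subunits, which tune its gating and hold it in the membrane. The channels are dense at the axon initial segment and at nodes of Ranvier, where ankyrin G anchors them. In rodents Scn1a is best known from fast-spiking inhibitory neurons, Scn8a from mature axons and motor neurons, and Scn2a from unmyelinated and immature axons. Scn3a is mainly a channel of the developing nervous system, and Scn9a is best known from the sensory neurons that signal pain. In rat sensory neurons Scn3a is known to come back after an axon is cut.

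The alpha subunits are close relatives, and 4 of the 5 lie in a cluster on chromosome 2 (GRCm38): Scn3a at chr2:65457118-65567627, Scn2a at chr2:65620771-65767447, Scn1a at chr2:66270778-66440840 and Scn9a at chr2:66480080-66634962. Scn2a is on the plus strand and the others are on the minus strand. Scn8a lies apart at chr15:100869858-101045938 on the plus strand. Their transcripts hold stretches that are identical between members, which bears on whether a read can be assigned to a single gene. Reads were 150 bases long per the labels.

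The shared stretches were a small part of each gene. Of the distinct 100-base words in its transcripts, Scn3a shared 2.22% with another gene, Scn9a 1.44%, Scn2a 1.03% and Scn1a 0.876%. Scn8a, Scn3b and Scn4b shared none of this length. By number of words the largest sharing was between Scn3a and Scn9a, with 185 words and a longest common run of 184 bases. Scn1a and Scn2a had a longest common run of 188 bases. How the authors treated reads that match more than 1 gene was not given. At 50 bases Scn3a shared 6.49% of its words. These shares do not bound the error of a count, since reads of an abundant gene such as Scn1a could weigh more in a low one such as Scn3a, and the counts of the 4 chromosome 2 members are uncertain to an extent that was not measured.

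Levels of different genes are compared in FPKM, the authors' values that scale a count by gene length and library total. Scn4b was the highest member with a median of 109.8 FPKM over the 9 libraries. It encodes the beta 4 subunit, which is known to support the resurgent current of fast-firing neurons. Scn1a followed at 60.1 FPKM, Scn8a at 28.0 and Scn2a at 11.7. Scn3b, the beta 3 subunit, stood at 8.43 FPKM, Scn9a at 4.49 and Scn3a, the lowest of those above 0, at 1.56. Scn2a and Scn3b were the neighbours in this order whose ranges crossed, the lowest Scn2a library at 10.7 FPKM lying below the highest Scn3b library at 11.3 FPKM. The other neighbours did not overlap in any library.

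**Figure D1:**
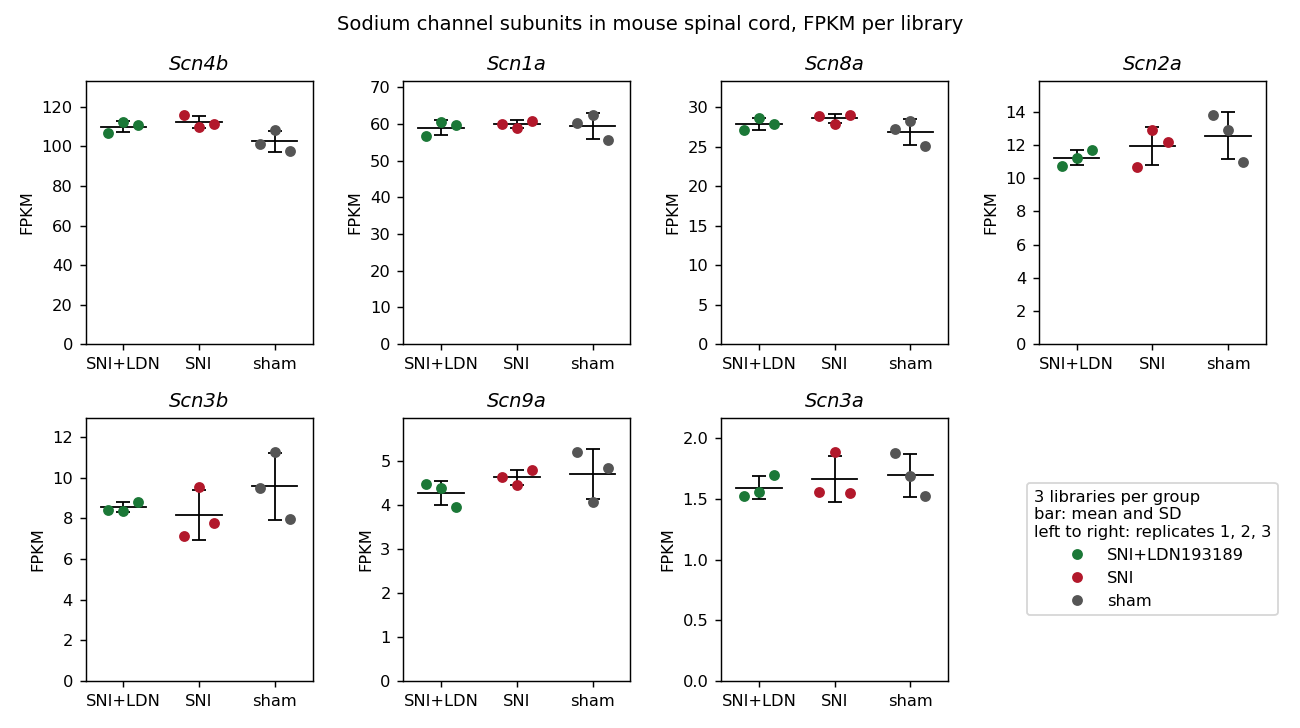
FPKM (y axis, from 0) of the 7 members above 0 in each library of SNI+LDN193189, SNI and sham, with the mean and SD of each group (n = 3). In every panel the groups lie close together, and Scn4b, at the upper left, is the member whose 3 SNI points all lie above its 3 sham points.

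Scn1a stood at 56.7, 60.6 and 59.6 FPKM in SNI+LDN193189 replicates 1, 2 and 3, at 60.1, 58.8 and 60.9 in those of SNI and at 60.3, 62.3 and 55.5 in those of sham. The groups overlapped in all comparisons, and sham replicates 2 and 3 were the highest and the lowest library. Its highest value was 1.12 times its lowest, the narrowest range of the 7 members. The log2 fold change of SNI against sham was 0.023 (SE 0.058), and the 95% interval ran from -6.76% to 10.7%. SNI+LDN193189 differed from SNI by -0.017 on the log2 scale, with an interval of -9.28% to 7.72%.

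Scn8a had 27.1, 28.7 and 28.0 FPKM in SNI+LDN193189, 28.9, 27.9 and 29.0 in SNI and 27.3, 28.3 and 25.1 in sham. Sham replicate 3 was the lowest of the 9, and sham replicate 2 lay above the lowest SNI library. Its mean was 28.6 ± 0.604 FPKM in SNI and 26.9 ± 1.64 in sham (SD, n = 3 each), a log2 fold change of 0.10 (SE 0.058). By edgeR the unadjusted p was 0.114 and the adjusted p 0.941, and the interval ran from -1.80% to 16.6%. Without sham replicate 3 the log2 fold change of SNI against sham was 0.037, and without sham replicate 2 it was 0.15. SNI+LDN193189 against SNI gave -0.028.

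Scn2a stood at 10.8, 11.2 and 11.7 FPKM in SNI+LDN193189, at 10.7, 12.9 and 12.2 in SNI and at 13.8, 12.9 and 11.0 in sham. SNI replicate 1 was the lowest library and sham replicate 1 the highest, and no group stood clear of another. The mean was 11.2 ± 0.455 FPKM in SNI+LDN193189 and 12.6 ± 1.43 in sham (SD, n = 3 each). The log2 fold change of that comparison was -0.15 (SE 0.086), with an edgeR adjusted p of 0.658. Its interval ran from -20.8% to 2.79%. The value was -0.25 on the log2 scale without sham replicate 3 and -0.083 without sham replicate 1. Against sham, SNI differed by -0.066 on the log2 scale.

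Scn3a, the developmental channel, had 1.53, 1.56 and 1.70 FPKM in SNI+LDN193189, 1.56, 1.89 and 1.55 in SNI and 1.88, 1.69 and 1.52 in sham. SNI replicate 2 and sham replicate 1 were the high libraries. The log2 fold change of SNI against sham was -0.016 (SE 0.095). SNI+LDN193189 stood -0.057 from SNI and -0.073 from sham on the log2 scale. For SNI against sham the 95% interval was -14.0% to 13.7%, so an increase above 13.7% lay outside it. The FPKM of Scn3a rests on a gene length of 20237 bases, as the ratio of counts to FPKM gives it, where the exons of GENCODE M21 cover 12459. With the annotated lengths the medians would be 2.54 FPKM for Scn3a, 3.56 for Scn9a, 6.53 for Scn3b and 8.37 for Scn2a, and the order of the members would not differ.

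Scn9a stood at 4.49, 4.39 and 3.97 FPKM in SNI+LDN193189, at 4.64, 4.47 and 4.81 in SNI and at 5.21, 4.08 and 4.85 in sham. Sham held both a high and a low library, replicates 1 and 2. The mean was 4.28 ± 0.274 FPKM in SNI+LDN193189 and 4.64 ± 0.171 in SNI (SD, n = 3 each), and the highest SNI+LDN193189 library lay just above the lowest SNI library. The log2 fold change was -0.11 (SE 0.078), with an edgeR unadjusted p of 0.183, an adjusted p of 1.0 and an interval of -17.3% to 4.04%. It was the largest difference of any member in that comparison. SNI against sham gave -0.013. Scn9a shares 180 exonic bases, 1.41% of its own, with Gm13629, a gene on the opposite strand that had 101 to 154 counts. The libraries mark strand per the labels, but the counting setting was not given.

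Among the beta subunits, Scn4b had 107, 112 and 111 FPKM in SNI+LDN193189, 116, 109.8 and 111 in SNI and 101, 108.5 and 97.8 in sham. In FPKM all 3 SNI libraries lay above all 3 sham libraries, and 2 of the SNI+LDN193189 libraries did so as well. In CPM, a count divided by the scaled library size as used in the edgeR fit, SNI and sham overlapped. Sham replicate 2 had 523.8 CPM there, above SNI replicates 2 and 3 at 522.0 and 521.7. The mean was 112 ± 3.07 FPKM in SNI and 103 ± 5.42 in sham (SD, n = 3 each). The edgeR estimate, made on scaled counts and not on these means, was a difference of 10.2% with a 95% interval of 1.14 to 20.0%. The log2 fold change was 0.14 (SE 0.058). By edgeR the unadjusted p was 0.0289 and the adjusted p 0.927, so it did not pass. SNI+LDN193189 differed from sham by 0.12 on the log2 scale (edgeR adjusted p 0.599) and from SNI by -0.023. The value moved with single sham libraries: without replicate 3 the log2 fold change of SNI against sham was 0.094, and without replicate 2 it was 0.20. The summed level of 14 neuron markers was also lowest in sham replicate 3, at 10592 CPM. It was 11408 to 12280 CPM in SNI+LDN193189, 11634 to 12472 in SNI and 11239 and 12264 in the other sham libraries. Of the 14 markers, 11 had a higher and 3 a lower fitted value in SNI than in sham. The sums of astrocyte, microglia and motor neuron markers were lowest in sham replicate 3 too, at 3961, 170 and 151 CPM. Those of oligodendrocytes and their progenitors were not. Schwann cell and nerve root markers were highest there, at 4623 CPM, as were meningeal fibroblast markers, at 779 CPM. The parts of neuron content and of attached tissue in the difference were not tested. In whole cord, fewer cells of a type and less RNA per cell cannot be told apart.

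Scn3b stood at 8.43, 8.38 and 8.82 FPKM in SNI+LDN193189, at 7.13, 9.52 and 7.79 in SNI and at 9.51, 11.3 and 7.95 in sham. It varied most, its highest library being 1.58 times its lowest, and sham replicate 2 stood above all others. The mean was 8.15 ± 1.24 FPKM in SNI and 9.57 ± 1.66 in sham (SD, n = 3 each), with a log2 fold change of -0.23 (SE 0.138). The edgeR adjusted p was 0.941, and the interval ran from -30.9% to 5.92%. Without sham replicate 2 the log2 fold change was -0.073. That library also had the highest sum of 11 markers of sensory ganglion neurons, 205 CPM. The sum was 101 to 129 CPM in SNI+LDN193189, 113 to 125 in SNI and 117 and 125 in the other sham libraries. Scn3b is known in rodents from sensory ganglia as well as brain, and the part of such RNA in its value was not tested.

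Scn2b encodes the beta 2 subunit, which is linked to the alpha subunit by a disulfide bond. Its gene at chr9:45117782-45130070 lies wholly inside the span of Gm10684, a long noncoding gene on the opposite strand with 150 to 225 counts per library, though their annotated exons share 0 bases. Of 710 protein-coding genes that lie wholly inside another listed gene, 491 (69.2%) were listed at 0 in all libraries, against 1736 of 13211 (13.1%) of those overlapping no listed gene. Outer genes on the same and on the opposite strand were counted together. The share for the opposite strand alone, as for Scn2b, was not taken. Markers of cell types that every cord holds, Aqp4 of astrocytes and P2ry12 of microglia among them, were also listed at 0. The entry for Scn2b is therefore given as listed at 0 and not as an absence of its RNA. Its neighbour Scn4b, at chr9:45138395-45154152, has no such overlap.

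Across the 7 tested members, 0 passed an adjusted p of 0.05 in SNI against sham by edgeR, where 0.0% of all tested genes did, and 0 did so by DESeq2. At an unadjusted p under 0.05 there was 1 member, Scn4b, beside 5.33% of all genes. With single libraries left out this count was 0 to 2: 0 without sham replicate 1 or SNI replicate 1, and 2 without sham replicate 2 (Scn4b and Scn8a), sham replicate 3 (Scn2a and Scn3b, not Scn4b) or SNI replicate 2 (Scn3b and Scn4b). By FPKM, the measure used for every such count of single genes, Scn4b was also the single member whose groups did not overlap, beside 9.3% of all genes. In CPM its groups overlapped. Between SNI+LDN193189 and SNI, 0 members passed, 0 had an unadjusted p under 0.05 and 0 had groups that did not overlap, beside 0.00548%, 3.88% and 11.4% of all genes. Between SNI+LDN193189 and sham the 3 counts were again 0, beside 0.0164%, 8.56% and 13.6%. In this comparison 3 members had an unadjusted p under 0.05 without sham replicate 2 (Scn4b, Scn8a and Scn9a) and 2 without sham replicate 3 (Scn2a and Scn3b). The shares of all genes given here belong to the fit of all 9 libraries. No share was taken with a library left out, so the member counts of those fits have no base rate. DESeq2 also called 0 members in these comparisons.

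In SNI against sham 3 members had a higher and 4 a lower fitted value, with a median log2 fold change of -0.013 beside 0.00048 over all tested genes. When SNI+LDN193189 was set against SNI, 1 was higher and 6 were lower, with a median of -0.028 beside -0.00075 over all genes. When it was set against sham, 3 were higher and 4 lower, with a median of -0.073 beside -0.0069. Each pair of comparisons shares a group of libraries, so their values are not independent. Scn1a turned its sign in SNI+LDN193189 against sham with the library totals as the scaling, at -0.0093 in place of 0.0062.

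**Figure D2:**
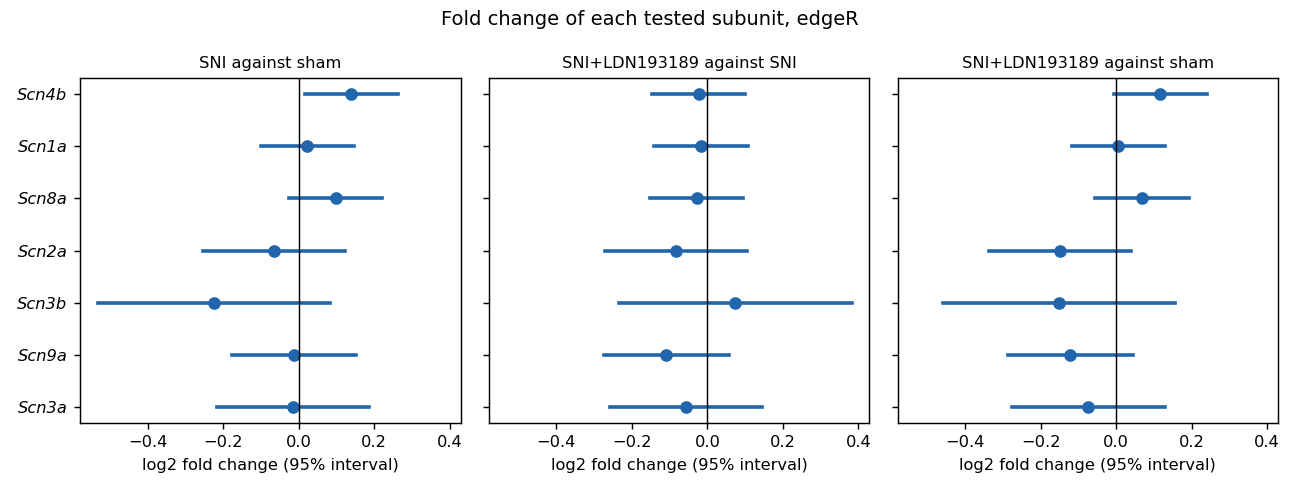
Log2 fold change (x axis) of each tested member in the 3 comparisons, with points at the edgeR estimate and lines for its 95% interval. Scn4b in SNI against sham is the 1 interval that does not cross 0, and Scn3b has the widest intervals.

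The make-up of the alpha subunits varied by a few percentage points between libraries. Scn1a gave 56.7 ± 0.277% of the summed alpha FPKM in SNI+LDN193189, 56.1 ± 0.628% in SNI and 56.4 ± 0.749% in sham (SD, n = 3 each). Scn8a gave 26.9 ± 0.171% in SNI+LDN193189, 26.8 ± 0.490% in SNI and 25.6 ± 0.359% in sham. Its share was 26.7 to 27.0% in SNI+LDN193189 and 26.3 to 27.3% in SNI, above the 25.2 to 25.9% of sham. Over all libraries Scn2a gave 10.1 to 12.7%, Scn9a 3.73 to 4.95% and Scn3a 1.43 to 1.78%. By raw counts, which favour long genes, Scn1a took 46.4% and Scn8a 37.1% at the median. The summed alpha FPKM was 101 to 106 in SNI+LDN193189, 106 to 108 in SNI and 97.9 to 109 in sham. Of the 3 beta subunits, Scn4b made up 90.6 to 94.2% of the summed FPKM.

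The ratio of Scn1a to Scn8a, which needs no library scaling, was 2.09, 2.11 and 2.13 in SNI+LDN193189, 2.08, 2.11 and 2.10 in SNI and 2.21, 2.20 and 2.21 in sham. All 6 libraries labelled SNI+LDN193189 or SNI lay below all 3 sham libraries. Of these 6, SNI+LDN193189 replicate 3 had 0.687 CPM of the injury gene Sprr1a, against 6.38 to 23.0 CPM in the other 5. Sham had at most 0.235 CPM. The ratio of that library, 2.13, lay within the counting error (0.024) of the next, 2.11. A link between Sprr1a and the ratio was not tested. The mean ratio differed by -5.06% in SNI against sham and by -4.30% in SNI+LDN193189 against sham. The counting error of a single library's ratio is 0.023 to 0.025, larger than the SD of 0.0038 among the sham libraries, so their closeness is no measure of the spread between animals. This ratio was singled out after its values were seen, from 21 ratios between pairs of tested members, and carries no test. In SNI against sham the groups did not overlap in 3 of the 21 ratios, where 9.3% of single genes did not. SNI+LDN193189 did not overlap with SNI in 2 of the 21 (11.4% of single genes) and with sham in 10 of the 21 (13.6% of single genes). The 21 ratios share 7 genes and are not independent. A share of single genes is another measure and no base rate for ratios. Ratios of other gene pairs were not computed, so these counts show no excess.

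The other ratios that stood apart in SNI against sham were Scn1a to Scn4b and Scn3a to Scn3b. Scn1a to Scn4b was 0.534 ± 0.014 in SNI and 0.579 ± 0.014 in sham (SD, n = 3 each). Scn3a to Scn3b was 0.198 to 0.219 in SNI and 0.150 to 0.197 in sham, groups that only just missed each other. Set against sham, SNI+LDN193189 had higher Scn4b relative to Scn1a, Scn2a, Scn3a, Scn8a and Scn3b in every library, but not relative to Scn9a. It also had lower Scn2a relative to 4 of the other members, Scn1a, Scn3a, Scn8a and Scn4b, in every library. Scn8a was higher there relative to Scn3b as well as to Scn1a. The ratio of Scn2a to Scn4b was 0.102 ± 0.0030 in SNI+LDN193189 and 0.122 ± 0.012 in sham (SD, n = 3 each). The ratio of Scn2a to Scn8a was 0.402 ± 0.014 in SNI+LDN193189 and 0.466 ± 0.035 in sham.

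**Figure D3:**
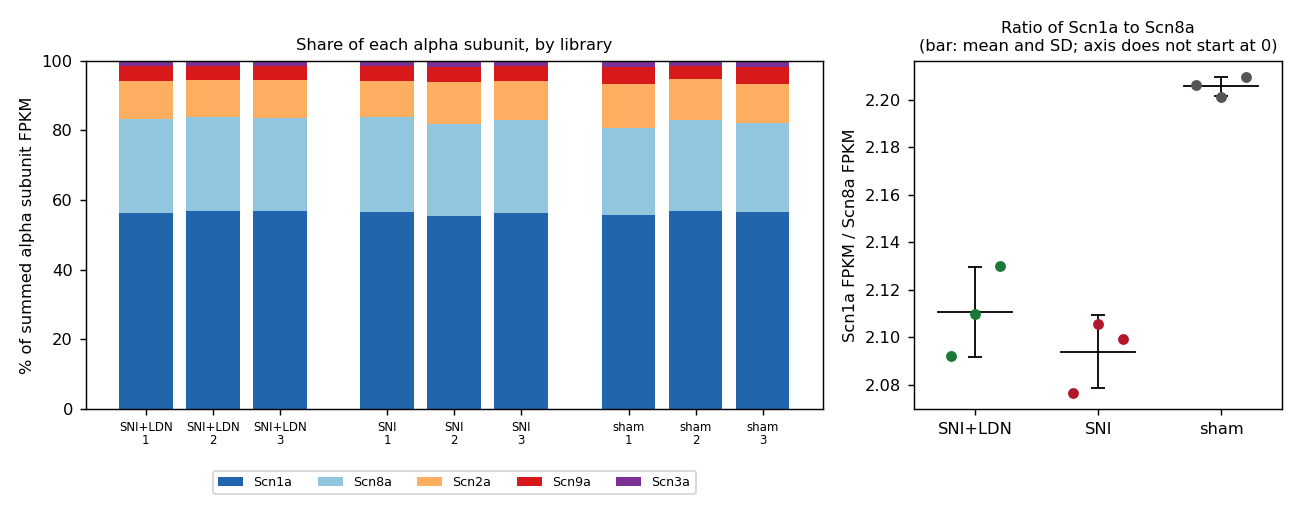
Left, the share of each alpha subunit (y axis, % of their summed FPKM) in each library of SNI+LDN193189, SNI and sham. Right, the ratio of Scn1a to Scn8a FPKM in the same libraries with the mean and SD of each group, on an axis that does not start at 0; SNI+LDN193189 and SNI lie at 2.08 to 2.13 and sham lies at 2.20 to 2.21.

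Relative to their own mean over 9 libraries, several members stood high or low in the same library. Scn1a, Scn8a and Scn4b were all lowest in sham replicate 3, at -0.13, -0.18 and -0.18 on the log2 CPM scale. Scn2a and Scn3a were both high in sham replicate 1, at 0.20 and 0.17, and in SNI replicate 2, at 0.12 and 0.20. Scn9a was highest in sham replicate 1, at 0.18, and lowest in SNI+LDN193189 replicate 3, at -0.18. Scn3b ranged from -0.26 in SNI replicate 1 to 0.40 in sham replicate 2.

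**Figure D4:**
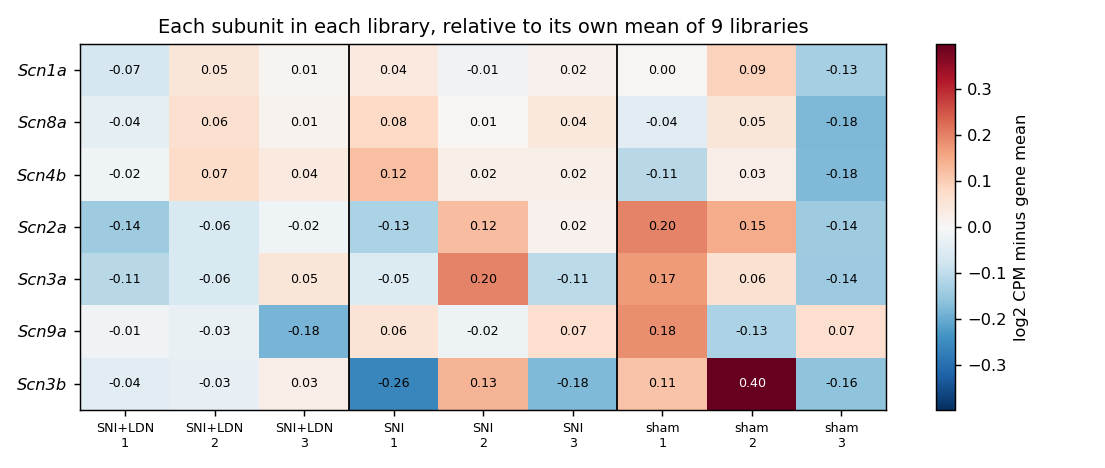
Log2 CPM of each tested member (rows) in each library (columns) minus the member's mean over the 9 libraries, with red above and blue below the mean. Sham replicate 3 is low for Scn1a, Scn8a and Scn4b, and sham replicate 2 is high for Scn3b at 0.40.

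Likeness between genes was measured as the root mean square difference of these centred log2 CPM values over the 9 libraries, against 15184 tested genes with a mean of at least 1 CPM. The measure carries no test. With 15184 genes compared over 9 libraries, a close neighbour need not share a function or a cell type with the member. The 2 genes most like Scn8a were Atp2b2, a plasma membrane calcium pump of neurons (0.014), and Dnm1, the dynamin of synaptic vesicle recycling (0.017). Scn4b was the member nearest to Scn8a (0.031), and Scn8a ranked 10th among the genes most like Scn4b, behind Adam23 (0.023) and Vamp1, a synaptic vesicle protein (0.023). Scn1a lay nearest to Klhdc2 (0.015) and Cd2bp2 (0.019). Gad2, an enzyme that makes the inhibitory transmitter GABA, was nearest to Scn2a (0.045), followed by Dnal1 (0.051). Scn3a lay nearest to Slc8a2, a sodium and calcium exchanger (0.038), and to Kantr (0.046), and its nearest member was Scn2a (0.067). Scn9a lay nearest to Kat8 (0.023) and 3110056K07Rik (0.034) and Scn3b to Vwa5a (0.076) and Pde11a (0.079). For Scn9a the nearest member, Scn1a at 0.137, ranked 5160th among the genes, so its pattern was unlike that of the other members.

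Channel genes of other tissues were read beside the members. Scn10a and Scn11a, channels of sensory ganglion neurons, had 401 and 265 counts in sham replicate 2 and at most 56 and 35 in any other library. Their SNI+LDN193189 libraries held 2 to 4 counts of Scn10a and 2 to 8 of Scn11a. Avil, a marker of those neurons, had 388 counts in sham replicate 2 and 32 to 86 elsewhere, and Mrgprd 72 counts there, 4 in sham replicate 1 and 0 in every SNI+LDN193189 and SNI library. Scn9a, which such neurons also express, did not follow: in sham replicate 2 it had 4.08 FPKM, the lowest of the sham libraries. For Scn10a the log2 fold change of SNI+LDN193189 against sham was -5.44 (SE 1.93), with an edgeR adjusted p of 0.557.

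Scn4a, the channel of skeletal muscle, had 176 counts in sham replicate 1, 18 in sham replicate 2 and at most 4 elsewhere, and was too low to be tested. The 6 skeletal muscle markers summed to 545 CPM in sham replicate 1 and to at most 11.3 in any other library, Acta1 alone giving 222 CPM there. Scn7a, a sodium-sensing relative found in glia and Schwann cells, had 3.54, 2.07 and 1.93 FPKM in SNI+LDN193189, 1.11, 1.83 and 2.13 in SNI and 2.25, 5.16 and 9.58 in sham. Its log2 fold change of SNI against sham was -1.73 (SE 0.576), with an unadjusted p of 0.023 and an adjusted p of 0.927. Prx, a myelin gene of Schwann cells, had 155, 62.7 and 58.2 CPM in SNI+LDN193189, 13.6, 37.9 and 60.6 in SNI and 53.1, 152 and 485 in sham, highest in sham replicate 3 like Scn7a. The part of attached nerve root in this value was not tested.

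**Figure D5:**
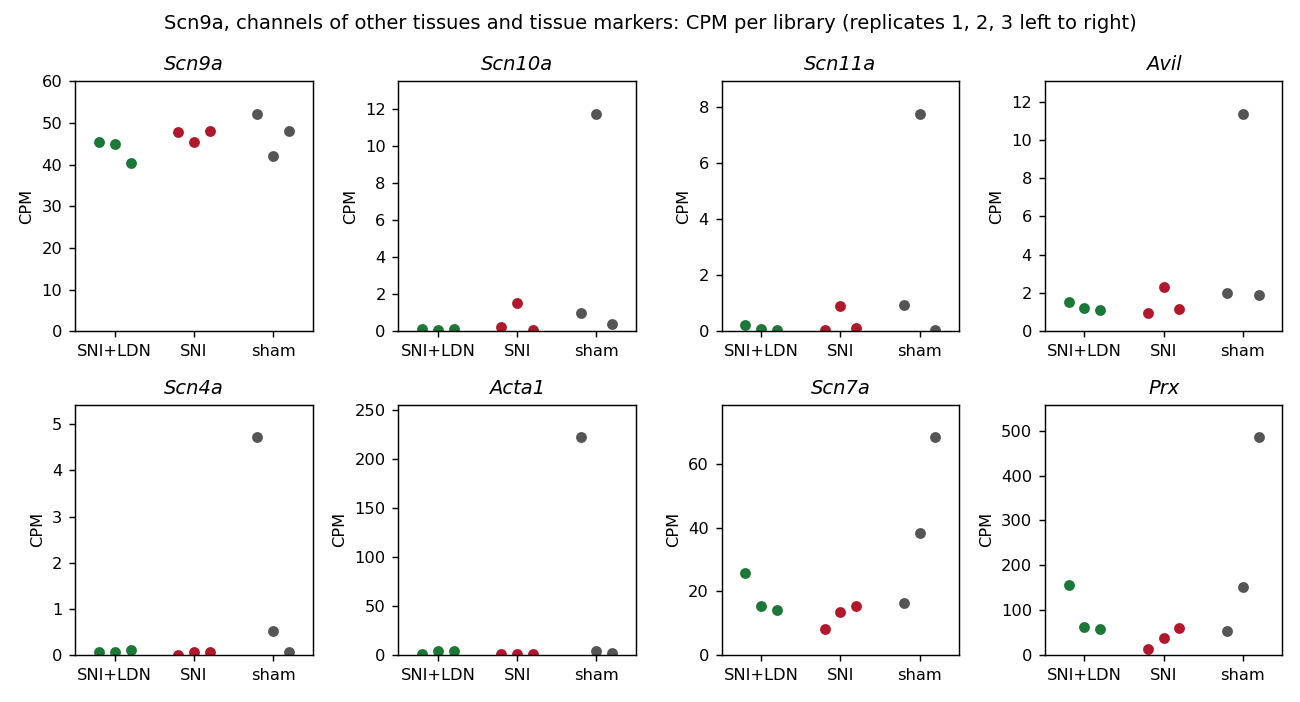
CPM (y axes, from 0) per library of Scn9a, of Scn10a and Scn11a beside the ganglion marker Avil, of Scn4a beside the muscle marker Acta1, and of Scn7a beside the Schwann cell marker Prx. Scn10a, Scn11a and Avil peak in sham replicate 2, Scn4a and Acta1 in sham replicate 1 and Scn7a and Prx in sham replicate 3, and Scn9a shows no such peak.

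Genes that place and modulate the channels were read beside them. Of 19 genes of the axon initial segment and node of Ranvier, 16 had a higher and 3 a lower fitted value in SNI against sham, with 0 called and a median of 0.040 on the log2 scale. Of these 19 genes, 6 were higher and 13 lower in SNI+LDN193189 than in SNI, with 0 called and a median of -0.045, and 9 were higher and 10 lower than in sham. In SNI+LDN193189 against SNI, 3 had an unadjusted edgeR p under 0.05 and 7 had groups apart in FPKM, all lower, beside 3.88% and 11.4% of all genes. In SNI against sham these counts were 1 and 2, all lower, beside 5.33% and 9.3%. In SNI+LDN193189 against sham they were 0 and 1, beside 8.56% and 13.6%. The list as a set was not tested. Ncan, the perineuronal matrix proteoglycan neurocan, had 8.43 ± 0.859 FPKM in SNI+LDN193189 and 10.0 ± 0.403 in SNI (SD, n = 3 each). Its log2 fold change was -0.25, with an unadjusted p of 0.00451 and an adjusted p of 1.0 by edgeR. Tnr, which encodes tenascin R of nodes and perineuronal nets, had 7.42 ± 0.685 FPKM in SNI+LDN193189 and 8.76 ± 0.826 in SNI, with a log2 fold change of -0.24. Gldn, gliomedin, which clusters channels at nodes of peripheral nerve, stood at 1.21 ± 0.422 FPKM in SNI and 4.09 ± 3.62 in sham.

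Of 20 binding partners and modulators of the channels, 10 were higher and 10 lower in SNI against sham, and 11 higher and 9 lower in each of the other comparisons, with 0 called in any of them. Prkca, protein kinase C alpha, which phosphorylates sodium channels, had 8.95 ± 0.975 FPKM in SNI and 10.9 ± 1.69 in sham (SD, n = 3 each), a log2 fold change of -0.27. Nedd4l, a ubiquitin ligase that takes channels from the membrane, had 3.68 ± 0.153 FPKM in SNI and 4.00 ± 0.133 in sham, and Fgf14, which binds the channels' C-terminal tail, had 2.54 ± 0.216 FPKM in SNI and 2.32 ± 0.126 in sham. Their edgeR adjusted p-values in that comparison were 0.927 for Prkca and 0.929 for Nedd4l and Fgf14.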

How the data were processed

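The counts are whole-number read counts per gene symbol as the authors deposited them. The FPKM values were deposited by the authors too and equal the count over the library total and 1 fixed length per gene. The build mm10 is named in the submitters' processing notes; the sources used here name no aligner, counter or annotation. Libraries held 33432776 to 37190467 counts, and no blank or total row was present. Columns L, S and N were read as LDN193189, sham and SNI from their names alone; if S stood for SNI, the directions between those groups would be reversed. Sprr1a, an injury gene, had 6.38, 17.4 and 0.687 CPM in L columns 1 to 3, 6.62 to 23.0 in N and 0.161 to 0.235 in S columns. Of the counts above 0, 70.7 to 71.8% were even, among members 40 of 63, and no source says why.

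Tests used edgeR 4.0.16 (R 4.3.3): filterByExpr, TMM factors of 0.984 to 1.02, 1 quasi-likelihood fit of 9 libraries with 6 residual degrees of freedom, and Benjamini-Hochberg adjustment over 18245 genes, called under 0.05. Unless another method is named, log2 fold changes of genes and their intervals are edgeR estimates on scaled counts, also where they stand beside FPKM means. On simulated data with 200 genes given a log2 change of 1, 71.8% were recovered in SNI against sham and 71.1 and 71.2% in SNI+LDN193189 set against SNI and sham. Of the genes called there, 5.41 to 6% were false. The simulated spread followed the trend over genes, without a spread of each gene's own. Changes as small as those of the members were not simulated, so their recovery is not known. Alternatives used DESeq2 1.42.0, limma 3.58.1, other scalings and filters, a replicate block and leaving out each library. Symbols and sequences were placed with GENCODE M21 (GRCm38) using Python 3.11.15, pandas 2.3.3 and matplotlib 3.10.9. The members and gene lists were chosen with earlier results of these data known. Named were all members, other channel subunits, up to 3 genes with the smallest p of each other list, the 2 genes most like each member and tissue markers beside a member; the ratios and Prx were chosen after their values were seen. Some genes and sequences are not reported here.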

Additional observations from a re-analysis of the deposited data

How the results depend on the processing

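No member was called under any alternative; the lowest adjusted p of a member over all of them was 0.188, for Scn4b in SNI+LDN193189 against sham without sham replicate 2. Of 399 alternative values of members, 380 kept their direction and 19 turned it, all of them near 0. Scn1a in SNI+LDN193189 against sham was -0.0093 with library totals as the scaling, -0.0079 with limma on log2(FPKM + 1), with or without a filter, and -0.0080 with a pseudocount of 0.1. Leaving out single libraries gave, in SNI against sham, -0.037 to 0.077 for Scn1a, -0.12 to 0.057 for Scn3a and -0.092 to 0.060 for Scn9a. In SNI+LDN193189 against SNI it gave -0.042 to 0.014 for Scn1a, -0.12 to 0.044 for Scn3a, -0.0033 to 0.20 for Scn3b and -0.044 to 0.010 for Scn4b. In SNI+LDN193189 against sham it gave -0.054 to 0.060 for Scn1a and -0.28 to 0.00072 for Scn3b. For Scn4b in SNI against sham the unadjusted p was 0.0289, 0.0518 with only the 2 groups fitted, 0.075 without sham replicate 1, 0.103 without sham replicate 3 and 0.132 without SNI replicate 1. Other members passed an unadjusted p of 0.05 in that comparison when 1 library was left out: Scn2a at 0.0271 and Scn3b at 0.00742 without sham replicate 3, Scn8a at 0.0119 without sham replicate 2 and Scn3b at 0.0175 without SNI replicate 2. In SNI+LDN193189 against sham the count of 0 became 3 without sham replicate 2 (Scn4b at 0.00343, Scn9a at 0.0156, Scn8a at 0.0336), 2 without sham replicate 3 (Scn2a at 0.00209, Scn3b at 0.0259) and 1, Scn4b at 0.0411 to 0.0496, with library totals, limma-voom with sample weights or limma on FPKM. In SNI+LDN193189 against SNI it stayed at 0 under every alternative run. The share of all genes with an unadjusted p under 0.05 was not taken in these alternatives, so these member counts have no base rate.

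Counts of all genes called moved more. SNI against sham called 0 by edgeR and 22 by DESeq2, and 0 to 38 without single libraries, 38 without sham replicate 1. SNI+LDN193189 against SNI called 1, against 6 by DESeq2, 2 without the filter, 2 by limma-voom, 0 by limma on log2(FPKM + 1) or log2(FPKM + 0.1), 3 with only the 2 groups fitted and 0 to 2 without single libraries, 0 without SNI+LDN193189 replicate 3, SNI replicate 1 or SNI replicate 2 and 2 without sham replicate 2 or SNI replicate 3. SNI+LDN193189 against sham called 3, against 73 by DESeq2, 30 without the filter, 1 by limma on log2(FPKM + 1) or log2(FPKM + 0.1) and 1 to 17 without single libraries: 17 without SNI replicate 3, 7 without sham replicate 1 or 2, and 1 without SNI+LDN193189 replicate 1 or 3 or SNI replicate 2. The cause was not tested. By counts in place of FPKM the median shares were 46.4% for Scn1a, 9.69% for Scn2a, 2.97% for Scn3a and 37.1% for Scn8a.

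The labels do not say whether replicate numbers pair the libraries. Same-numbered libraries correlated at 0.016, 0.132 and 0.144 in SNI and sham, where different-numbered ones ran from -0.18 to 0.0711. In the other pairs of groups same-numbered libraries correlated at -0.109 to 0.083 and different-numbered ones at -0.107 to 0.132. The values were centred within each group of 3, so these correlations cannot settle whether the numbers pair libraries. With the replicate block, 0, 0 and 4 genes were called in the 3 comparisons, and no member. At 1010 to 1949 counts per library, Scn3a, Scn9a and Scn3b are counted less precisely than the other members.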
